A study of Drosophila melanogaster with 2 samples.

Results

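The regions described here are 710 binding summits of the transcription factor Adf1 that lay just upstream of a single autosomal promoter, out of 4370 summits in the peak list called across both replicates. A summit, the base of highest signal in a peak, was a member when 3 conditions held. It lay off the X chromosome and 1 to 500 bp upstream of the nearest start site (TSS) of a protein-coding gene. That TSS lay at most 1000 bp inside the outermost start of its gene. No protein-coding gene on the opposite strand began within 1000 bp upstream of that outermost start, so promoters shared by 2 diverging genes were left out. The members made up 16.2% of the list, fell in 690 peak intervals and were assigned to 664 genes. These were 8.50% of the 7812 autosomal protein-coding genes that could have had a member because no such neighbour was annotated, called eligible genes below.

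Adf1-bound DNA was measured by chromatin immunoprecipitation and sequencing in whole Drosophila melanogaster embryos of the strain Adf1-GFP, aged 0 to 24 h. There were 2 biological replicates with 1 library each, both from transgenic flies carrying an Adf1-eGFP fusion (a green fluorescent tag) and both sonicated to fragments of 200 to 800 bp. The immunoprecipitation used an antibody against the tag, and the antibody field of the labels gives Adf1. All samples thus shared 1 genotype, stage and treatment, and the design held no second group to compare; the promoter that drives the fusion is not given in the sources used here. Whole embryos of all ages were pooled, so binding in few cells or for a short time cannot be told apart from weak binding in many. The total reads behind each peak are unknown here, and all intervals below are 95% Wilson intervals that cover counting error only.

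Adf1 is a sequence-specific activator first described from its binding upstream of the alcohol dehydrogenase gene Adh, and it is also known from memory and synapse growth in the fly. It contacts DNA through a MADF domain, a relative of the Myb fold, and its described sites are rich in repeated GC pairs spaced by 1 base. A fly promoter consists of the core around the TSS, where elements such as the TATA box and the initiator place the polymerase, and of proximal sites just upstream, among them the GAGAG letters bound by GAGA factor and the DRE bound by DREF.

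The windows reaching 50 bp to each side of the strongest summits are shown first, because the letters that recurred at members are visible in them. They are the 8 members with the highest signal among those whose sequence could be printed and whose window touched no exon of a protein-coding gene, read 5′ to 3′ on the strand of the gene from RefSeq Release 6 (dm6). Capitals mark runs of at least 3 GC pairs spaced by 1 base (GCNGCNGC, either strand) and the 6 letters CGCTGC or their complement GCAGCG, which can overlap.
CG3036, chr2L:4891969-4892069, plus strand: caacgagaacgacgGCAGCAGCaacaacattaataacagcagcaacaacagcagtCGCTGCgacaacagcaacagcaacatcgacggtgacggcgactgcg
Kr-h1, chr2L:6082453-6082553, plus strand: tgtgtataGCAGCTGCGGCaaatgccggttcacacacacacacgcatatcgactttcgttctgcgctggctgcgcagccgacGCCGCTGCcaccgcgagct
CG4629, chr2L:1102552-1102652, minus strand: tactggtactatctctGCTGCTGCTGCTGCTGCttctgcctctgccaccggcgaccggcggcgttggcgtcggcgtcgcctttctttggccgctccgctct
Fmr1, chr3R:10109257-10109357, minus strand: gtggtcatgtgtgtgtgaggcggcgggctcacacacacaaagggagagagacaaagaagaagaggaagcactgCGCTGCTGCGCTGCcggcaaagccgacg
CG5953, chr2L:16533273-16533373, minus strand: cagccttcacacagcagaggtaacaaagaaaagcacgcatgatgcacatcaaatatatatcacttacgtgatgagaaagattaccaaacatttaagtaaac
CG9743, chr3R:30203104-30203204, minus strand: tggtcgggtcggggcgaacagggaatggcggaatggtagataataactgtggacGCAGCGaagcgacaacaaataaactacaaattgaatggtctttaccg
rdgC, chr3L:20247938-20248038, plus strand: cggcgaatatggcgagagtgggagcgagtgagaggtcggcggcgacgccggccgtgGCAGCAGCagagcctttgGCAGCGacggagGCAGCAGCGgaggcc
abd-A, chr3R:16830140-16830240, minus strand: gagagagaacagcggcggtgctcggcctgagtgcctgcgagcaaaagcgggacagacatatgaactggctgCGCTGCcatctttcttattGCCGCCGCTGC

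In 7 of these 8 windows capitals appeared, and in CG4629 they formed 1 run of GCT units. CG5953 had none although its signal was the fifth highest of the 8 shown. Its window held 36.6% G and C. These 8 windows were picked by signal and do not stand for all members. CGCTGC was within 50 bp of 25.9% of member summits, and of 23.9% of all summits. For the run of 3 pairs the shares were 16.5% and 16%. In the strongest of 4 equal groups of members by signal, CGCTGC was in 47.8% and the run in 32.6%. CGCTGC was itself chosen from member windows, as described below. The next 3 windows belong to the strongest members with less than 30% G and C under the same printing rule, a class set after the data were seen. They are shown for contrast with the GC-rich windows above.
CG14100, chr3L:19590567-19590667, minus strand: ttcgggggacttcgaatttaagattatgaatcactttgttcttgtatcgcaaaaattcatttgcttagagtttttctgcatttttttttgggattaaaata
CG18549, chr3R:12449116-12449216, plus strand: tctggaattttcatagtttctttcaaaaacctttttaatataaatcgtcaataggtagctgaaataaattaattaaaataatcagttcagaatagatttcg
CG1635, chr3R:31588484-31588584, plus strand: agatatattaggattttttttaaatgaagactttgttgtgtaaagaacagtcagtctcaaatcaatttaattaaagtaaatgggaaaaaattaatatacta

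None of the 3 AT-rich windows held a capital, which the limit on G and C largely fixed, since the marked words are GC-rich. Of all 136 AT-rich members 1 had CGCTGC within 50 bp and 0 had the run of 3 pairs. The last 4 windows are those of the weakest members that could be printed, shown for contrast with the first 8.
klu, chr3L:11009284-11009384, minus strand: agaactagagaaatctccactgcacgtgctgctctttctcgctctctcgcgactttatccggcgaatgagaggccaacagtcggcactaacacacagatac
CG17786, chr3R:24218820-24218920, minus strand: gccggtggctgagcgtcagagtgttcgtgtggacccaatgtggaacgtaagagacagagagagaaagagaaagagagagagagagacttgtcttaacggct
RpL30, chr2L:19009426-19009526, minus strand: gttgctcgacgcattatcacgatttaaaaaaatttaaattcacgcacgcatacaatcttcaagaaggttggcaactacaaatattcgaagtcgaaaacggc
bcd, chr3R:6759797-6759897, minus strand: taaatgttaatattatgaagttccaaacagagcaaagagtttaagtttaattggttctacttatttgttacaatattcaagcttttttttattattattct

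No capitals occurred in these 4 windows either. CG17786 carried a long run of GAGAG, and klu had shorter GA-rich stretches. In the weakest of the 4 groups by signal, CGCTGC was in 14.6% of members and the run of 3 pairs in 6.18%. With shares this low, 4 windows are too few to show that weak members lack these letters.

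Signal is the strength that the authors' peak calling gave each peak; no unit is stated, so it only ranks peaks within 1 list here. Its median over members was 163, ranging from 15.6 to 3544, against 151 over all 4370 summits. Autosomal summits downstream of a single promoter had a median of 129, those at divergent promoters 135, those at internal alternative starts 189, and X-linked summits chosen by the same upstream rule 160. Members therefore sat slightly above the whole list, and 373 of them (52.5%) exceeded its median. Of the 20 highest signals of the list 5 were members, of the 100 highest 23, and of the 437 highest 81.

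The strongest member was that of Eglp4 on arm 2R, an entomoglyceroporin of the aquaporin family of channels, 149 bp upstream of the TSS. Its signal was 3544 in the joint list, 1385 in the ranked list of replicate 1 and 2185 in that of replicate 2. CG3036, 93 bp upstream, had 3272, with 1184 and 2104 in the replicates. Both thus ranked within the first 6 of the whole list. CG31729, a gene with the RefSeq synonym P4-ATPase, had 2747 at 50 bp, from 738 and 2029. Kr-h1, a zinc finger factor of the juvenile hormone response, had 2623 at 100 bp, from 831 and 1803. Signals were higher in replicate 2 than in replicate 1 for all 4, as they were for the median member, so replicates are compared by rank and not by level.

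The remaining 21 of the 25 strongest members ranged from 2543 at CG4629 down to 1411 at jim, a zinc finger gene. Their genes had varied roles, given here singly and not as a tested theme. Fmr1, the RNA-binding fragile X protein gene, had 2494, and Fas3, a homophilic adhesion protein of neurons and epithelia, had 1867. The octopamine receptor gene Octbeta2R had 1641, the glutamate receptor gene Nmdar1 1561 and the potassium channel gene Irk1 1488. A calcium-regulated phosphatase gene of photoreceptors, rdgC, had 1900. Of these genes Fas3 alone was a member gene of the synaptic and axon guidance list.

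Genes of other functions followed in the same range. The Hox gene abd-A had 1834, the Polycomb group gene Psc 1745 and the Ets factor gene pnt, an effector of EGF receptor signalling, 1686. The T-box gene mid had 1527 and the wing selector gene vg 1472. Hr38, a nuclear receptor gene, had 1759 and cv-2, which encodes a BMP-binding protein of wing crossveins, 1750. Ald1, the glycolytic aldolase gene, stood among them at 2031. Genes named only by number filled the other places: CG5953 had 2238, CG9743 1906, CG3829 1831, CG12769 1731 and CG42747 1419. All 25 were in the thresholded list of each replicate.

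**Figure D1:**
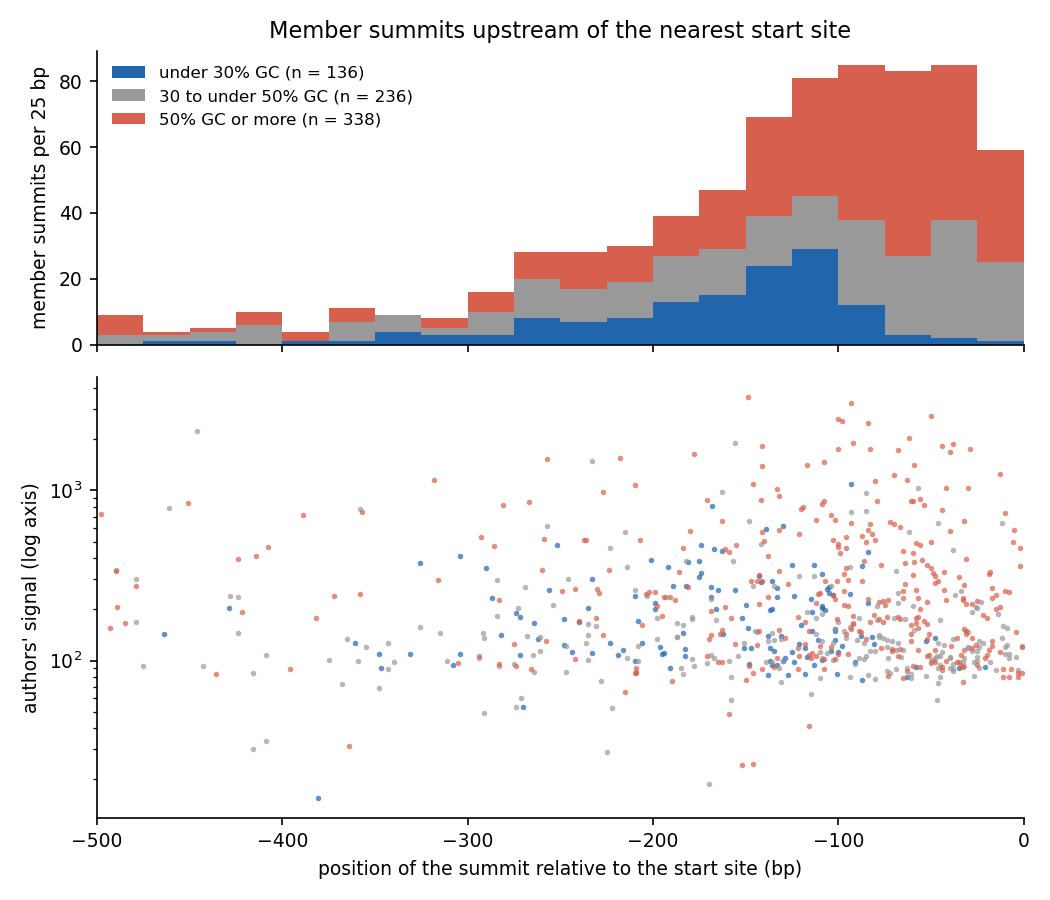
Top, number of member summits per 25 bp against their position upstream of the TSS, stacked by G and C content within 50 bp of the summit; bottom, the authors' signal of each member on a log axis against the same position. Most of the 710 summits lay within 200 bp, and AT-rich members (blue) were centred farther upstream than GC-rich ones (red).

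Member summits crowded toward the TSS inside the 500 bp that the rule allowed. Their median distance was 112 bp, with quartiles of 60.2 and 190 bp, and 548 (77.2%) lay within 200 bp. Bins of 50 bp held 144, 168, 150 and 86 members going upstream to 200 bp, and only 28 lay more than 400 bp away. Signal did not follow distance in a simple order: the median was 124 in the first 50 bp, 179 in the next 50 bp, 155 in the 50 bp after that and 179 again up to 200 bp. In 551 members (77.6%) the peak interval itself covered the TSS. The nearest TSS was the outermost start of its gene for 633 members and an internal start for 77, whose summits lay inside their own gene.

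At the limit of the rule, the 5 members farthest from their TSS were CG13894 at 498 bp with a signal of 724, CG4374 at 493 bp with 155, the polarity gene scrib at 490 bp with 341, CG14636 at 490 bp with 337 and CG10348 at 489 bp with 206. Just outside it lay LpR1 at 501 bp with 212, KP78b at 505 bp with 303, CG5973 at 528 bp with 107, CG12402 at 528 bp with 37.1 and CG42808 at 530 bp with 106. The values on either side overlapped. The lowest signals among members were 15.6 at a second summit of bcd, 18.8 at RpL30, 24.3 at CG17786, 24.5 at klu and 29.0 at Pfas. Their replicate signals were not as low: bcd, the anterior morphogen gene, had 50.6 and 54.0 in the ranked lists of replicates 1 and 2, and klu had 53.9 and 229. For bcd and Pfas the other member of the same gene overlapped the same replicate peaks, so these values belong to a pair of summits. The joint value of these 5 was below both replicate values, whereas at the strongest members it lay near their sum.

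**Figure D2:**
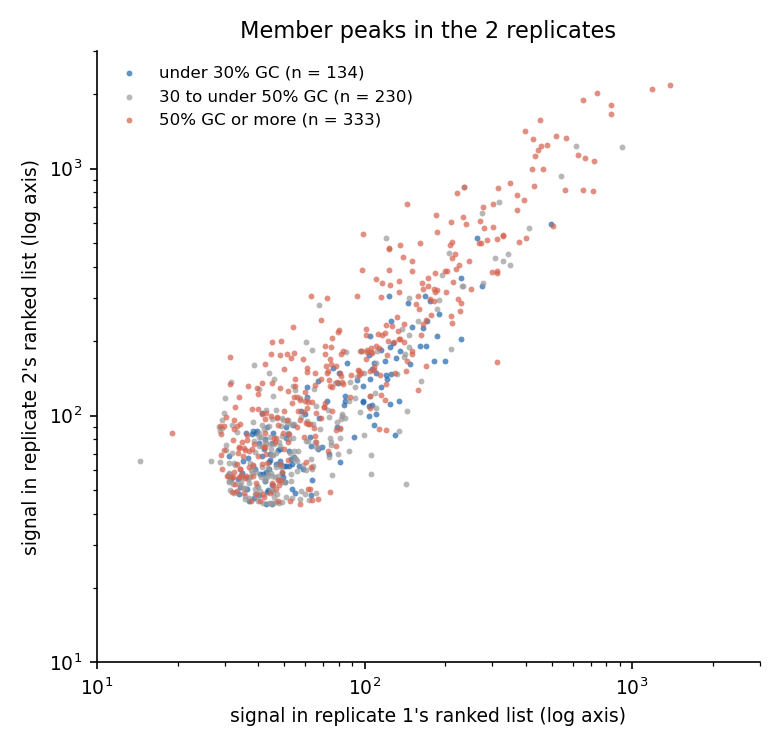
Signal of member peaks in the ranked list of replicate 1 (horizontal) and replicate 2 (vertical), both on log axes, one point per member found in both, coloured by G and C content. The points follow 1 band from about the lowest values to 1385 and 2185, with more scatter at the weak end.

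The thresholded list of replicate 2 was longer, with 6003 peaks against 3126, and overlapped more members. The thresholded list of replicate 1 overlapped 508 members (71.5%, interval 68.1 to 74.7), against 70.2% of all summits. That of replicate 2 overlapped 644 (90.7%, 88.3 to 92.6), against 92.7% of all summits. The share of the whole list lay inside the members' interval in replicate 1 and just above it in replicate 2. Summits downstream of single promoters were found in replicate 1 less often, at 56.4% (50.5 to 62.0), with intervals that did not meet; in replicate 2 they had 92.2% (88.5 to 94.8), overlapping that of the members. Both replicates held 482 members (67.9%), with a median signal of 235; 40 members (5.63%, median 87.3) were in neither thresholded list.

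Recovery followed signal closely. The joint signal came from the same 2 replicates, so this trend is partly fixed. With members divided by signal into 4 groups of equal size, weakest first, replicate 1 held 36.5%, 57.1%, 92.7% and 100%, and replicate 2 held 71.9%, 92.7%, 98.3% and 100%. In the longer ranked lists 697 members had a peak in both replicates, with a Spearman correlation of 0.79 between the signals, against 0.70 over 4337 summits of the whole list. This is a description across sites that share 2 libraries and were selected for repeated ranks. The summits of the 2 replicates lay a median of 25 bp apart, and both were upstream of the TSS in 646 of the 697 (92.7%). Each replicate peak was the overlapping one nearest to the joint summit, and membership required that joint summit to be upstream. Both values are therefore partly fixed by the matching and the rule.

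The described Adf1 motif of repeated GC pairs was present in few members. A run of 4 GC pairs (GCNGCNGCNGC, either strand) fell within 50 bp of 41 summits (5.77%, 4.28 to 7.74), against 6.13% of all summits and 0.563% (0.219 to 1.44) of windows 500 bp farther upstream of the same members. With 3 pairs the share was 16.5%, against 16% of all summits. In the 250 bp before the TSS, 11.0% of member genes (8.84 to 13.6) had the run of 4, compared with 1.43% of 7148 eligible genes without a member and 2.20% of all eligible promoters. The motif was therefore more frequent at member promoters than at others, but most members lacked it.

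A scan of all 6-mers in the member windows against windows 500 bp farther upstream gave CGCTGC the largest difference in share. It was chosen from these windows, so its share there is a description. It occurred in 184 members (25.9%, 22.8 to 29.3) and in 4.65% of the flanking windows. Among windows that played no part in the choice, X-linked upstream summits had it in 34.4% (28.0 to 41.5) against 3.76% of their flanks, and downstream summits in 23.8% against 3.55%. Divergent promoters had it in 8.47% (6.49 to 11.0) and in 7.46% of the flanks, which there can lie in the neighbouring gene. Over all summits the share was 23.9%. Promoters of 250 bp contain most of the member windows behind the choice, so an excess there is partly fixed by it. Their share was 37.5% for member genes (33.9 to 41.2), 10.6% for eligible genes without a member (9.93 to 11.4) and 12.7% for all eligible genes. The other 9 of the 10 leading 6-mers were also GC-rich, among them GCTGCC in 21.5% of members and CGACGC in 16.2%. Of the members 366 (51.5%) held at least 1 of the 10, close to the 52% of all summits. The flanks, against which the 10 were picked, had 178 (25.1%).

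**Figure D3:**
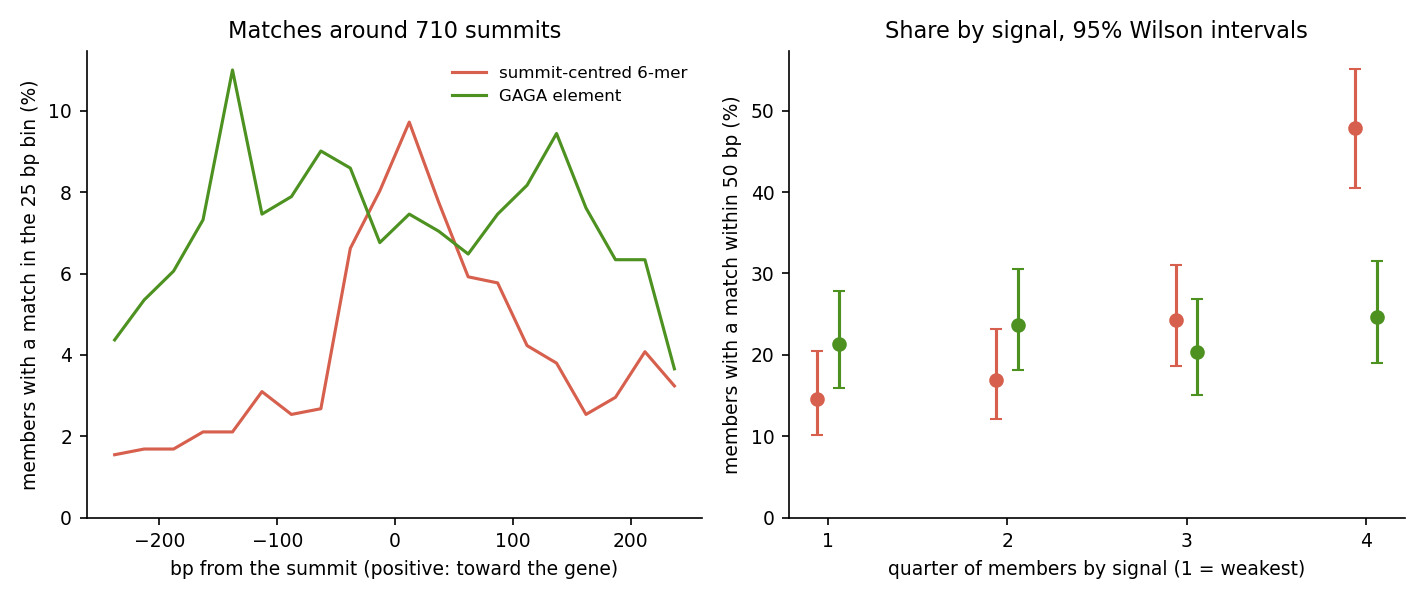
Left, percent of the 710 members with a match in each 25 bp bin around the summit for CGCTGC (red) and GAGAG (green), positive positions toward the gene; right, percent with a match within 50 bp of the summit in 4 equal groups by signal, with 95% Wilson intervals. The 6-mer was chosen for its excess in these summit windows, so its peak at the summit is partly fixed by the choice. It reached 47.8% in the strongest group. GAGAG, which was not chosen that way, had no peak at the summit and stayed between 20.3% and 24.7%. The motifs are not compared.

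CGCTGC was most frequent at the summit, which its choice from these windows partly fixed, and in the strongest members. The first 25 bp on the gene side of the summit held a match in 9.72% of members, the bins 226 to 250 bp upstream in 1.55%. On the gene side the decline was slower, with 4.23% at 100 to 124 bp. Over the 4 groups by signal its share was 14.6% (10.2 to 20.5), 16.9%, 24.3% and 47.8% (40.5 to 55.1), weakest to strongest. In 66 members it occurred more than once within 50 bp of the summit, with up to 4 matches. The mean G and C content of the same groups was 43.7%, 42.3%, 45.9% and 51.6%, and its part in the trend was not tested; shares by class of G and C content are given below.

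GAGAG, the letters of GAGA factor, lay within 50 bp of 160 member summits (22.5%, 19.6 to 25.8), against 21.0% of all summits and 12.4% of the upstream flanks. Across the 4 groups by signal it stayed between 20.3% and 24.7%. Its positions were spread, and the bin with most matches, 11.0%, lay 126 to 150 bp upstream of the summit. At promoters of 250 bp it was found in 44.6% of member genes (40.8 to 48.4), in 28.6% of eligible genes without a member and in 29.8% of all eligible genes. The DRE (TATCGATA) lay near 16 member summits (2.25%), with 1.56% over all summits and 5.59% (4.01 to 7.75) at divergent promoters. In promoters of 250 bp it was found in 4.22% of genes with and 4.36% of genes without a member, and in 4.35% of all eligible genes. Within the middle class of G and C content described below, its shares at members and other promoters were further apart. Those windows, however, were not placed alike.

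**Figure D4:**
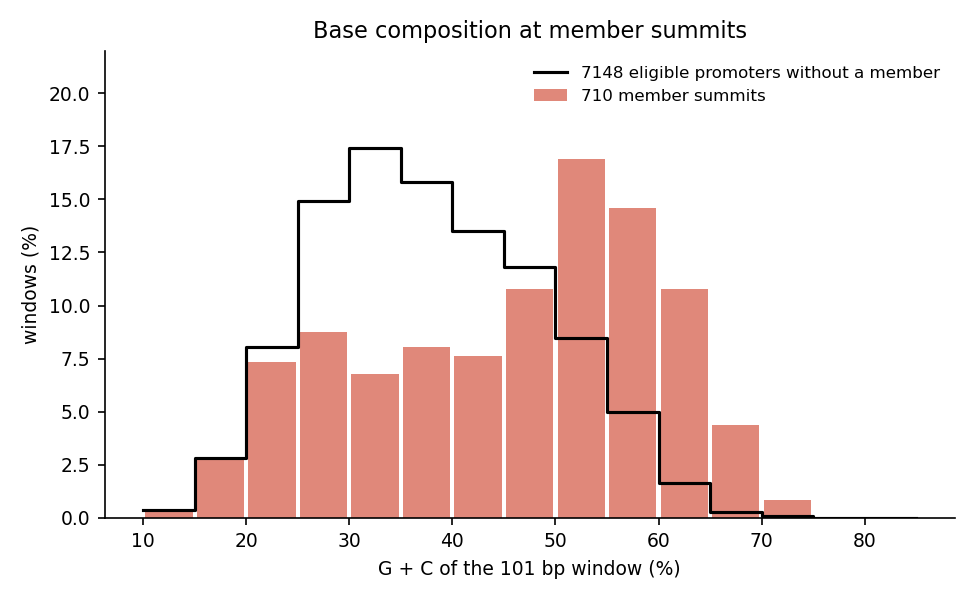
Percent of windows in each 5-point class of G and C content, within 50 bp of the 710 member summits (bars) and for windows of the same width centred 111 bp upstream of the start of the 7148 eligible genes without a member (line). Members were spread over both an AT-rich and a GC-rich range, with 47.6% at or above 50%, against 15.4% of the other promoters.

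The base composition of member windows covered a wide range and was close to that of the whole list. Their windows held 45.9% G and C on average with an SD of 13.8 over members, and 338 (47.6%, 44.0 to 51.3) reached 50% or more, whereas 136 (19.2%, 16.4 to 22.2) were under 30%. Over all 4370 summits the mean was 46.0%, with 45.7% of windows at 50% or more and 16.2% under 30%. Windows centred 111 bp upstream of eligible genes without a member reached 50% in 15.4% and were under 30% in 26.2%. Autosomal summits 500 to 2000 bp from a start had 16.9% (14.0 to 20.2) under 30%, and more distant ones 14.2% (11.9 to 16.8). Divergent promoters had 32.7% (29.0 to 36.6) of summits under 30%, downstream summits 4.96% (2.98 to 8.16) and X-linked upstream summits 9.14% (5.78 to 14.1). The limits of 30% and 50% were set after the distribution was seen, and they cut a continuous spread in which 236 members lay between them.

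The AT-rich members differed from the GC-rich ones in place and in strength. Their median distance was 148 bp with quartiles of 113 and 208 bp, against 95 bp with quartiles of 52 and 158 bp for GC-rich members. The order was not particular to members. Medians were 184 and 71 bp at X-linked upstream summits, 214 and 80 bp at internal starts and 107 and 82 bp at divergent promoters. Downstream summits had 51.5 and 50 bp. The median signal of AT-rich members was 149 and their highest 1093, against 231 and 3544. The lowest median, 125, was that of the middle class. Over all summits the medians were 147 under 30% and 197 at 50% or more. At divergent promoters alone the order was reversed, with 163 and 143. Replicate 1 recovered 69.9% of AT-rich members and replicate 2 86.0%, compared with 78.4% and 94.1% of GC-rich ones. For the middle class these shares were 62.7% and 88.6%. Mean G and C content along the promoter fell to 29.4% at 150 bp upstream of the TSS for AT-rich members and returned to 46.6% at the TSS. For GC-rich members it was 50.9% and 51.6% at the same points, and for promoters without a member 36.8% and 43.3%. A gap upstream of the TSS follows from the grouping, which used windows there. It was smaller at the TSS and 50 bp into the gene, at 44.4% and 49.7%, and was not seen at 200 bp into the gene, at 45.2% and 45.1%.

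The strongest AT-rich member was that of CG14100, with a signal of 1093 from 497 and 595 in the replicates. It was followed by Tina-1 with 808, CG18549 with 614 and CG1635 with 597. Next came msi, the RNA-binding protein gene musashi, with 480 at 12.9% G and C, and RluA-1 with 476. After them brwl, a gene of the MADF family to which Adf1 itself belongs, had 454. The highest AT-rich signals were therefore below those of the 25 strongest members, of which none was AT-rich.

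Motif shares are given next within the 3 classes of G and C content. CGCTGC was chosen for its excess in these member windows and GAGAG was not, so the values of CGCTGC are a description and the 2 motifs are not compared. Among windows of 50% or more, CGCTGC was in 45.3% of members (40 to 50.6) and in 11.7% of promoters without one (9.95 to 13.8), and in 41.8% of all summits of that class. The class is open at its upper end: 77 of its member windows and 116 of the others lay from 60% to under 65%, out of 338 and 1101. From 30% to under 50% it was in 12.7% (9.05 to 17.6) and 3.78% (3.25 to 4.41). GAGAG in the GC-rich windows was in 32.5% (27.8 to 37.7) and 33.7% (31.0 to 36.5). The DRE in the middle class was in 5.08% of members (2.93 to 8.68) and 1.39% of the other promoters (1.08 to 1.79). In the AT-rich class it was in 0 of 136 members and 1.44% of the other promoters. GC-rich windows had it in 1.18% and 0.182%. Windows of other promoters were all centred 111 bp upstream, but DRE matches at members lay a median of 37 bp upstream of the TSS. These shares are therefore not like for like. The same limit holds for CGCTGC and GAGAG, since member windows followed the summit. Matches of CGCTGC at members lay a median of 64 bp upstream of the TSS, and those of GAGAG 121 bp. Promoters of 250 bp, placed alike by the TSS, had the DRE in 4.22% and 4.36%. In AT-rich windows CGCTGC was nearly absent, with a match in 1 of 136 members and in 0.428% of the other promoters. Within 250 bp of the AT-rich member summits CGCTGC was found in 28.7% (21.7 to 36.8). Over all AT-rich summits of the list the share was 25.4% (22.4 to 28.8). Around the AT-rich windows of other promoters it was 14.5% (13 to 16.2). TATAAA, which is itself AT-rich, lay within 50 bp of 52 AT-rich member summits (38.2%) and 14 GC-rich ones (4.14%). Over all summits of these classes the shares were close, at 37.7% and 2.90%.

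A search of 6-mers and 8-mers, at 50 bp and 200 bp around AT-rich summits, gave 1 further word, CACAGTGG (complement CCACTGTG), at the wider setting. It was chosen after these settings were seen and is described without a test. Within 250 bp of the summit it occurred at 49 members (6.90%, 5.26 to 9.01), against 6.52% of all summits and 1.34% (1.10 to 1.64) of equal windows at promoters without a member. It was not limited to the AT-rich members, of which 18 (13.2%, interval up to 20%) had it, since 19 GC-rich members (5.62%, 3.63 to 8.61) did too. Internal starts and distal sites had it in 7.64% and 7.03%. Its matches lay a median of 97.5 bp from the member summit.

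The 60 matches at members had a side and a direction. Upstream of the summit 19 read CACAGTGG on the strand of the gene and 11 read the complement; downstream 6 read CACAGTGG and 24 the complement. In 6 members the pair faced inward across the summit, at Glyp, Wnt6, Kal1, by, CG6225 and CG33946, all named after their matches were seen. Glyp encodes glycogen phosphorylase and Kal1 an extracellular matrix protein related to human anosmin. Both sites of 2 of them are shown, 24 bp each, with the 8-mer in capitals.
Glyp, upstream side, chr2L:2130519-2130542, plus strand: cagcaacgCACAGTGGgcgatatg
Glyp, downstream side, chr2L:2130711-2130734, plus strand: cagcgcacCCACTGTGcgctggga
Kal1, upstream side, chr3R:24141126-24141149, plus strand: gagcacggCACAGTGGtacaaatc
Kal1, downstream side, chr3R:24141305-24141328, plus strand: caccttgcCCACTGTGgcgagaga

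At Glyp the 2 words were centred 107 bp upstream and 85 bp downstream of a summit with 18.8% G and C, and at Kal1 74 bp upstream and 105 bp downstream of one with 20.8%. Over all summits 90 matches read CACAGTGG and 66 the complement on the upstream side, with 69 and 106 on the downstream side, and 31 summits had the inward pair. The counts over all summits include the members. Autosomal summits 500 to 2000 bp from a start had another balance, with 9 and 7 upstream and 21 and 11 downstream. On the upstream side the complement was more frequent at divergent promoters (7 and 10), X-linked upstream summits (2 and 4) and downstream summits (0 and 2). Their downstream sides had 4 and 9, 1 and 3, and 1 and 3. Internal starts (13 and 9, then 5 and 16) and distal summits (17 and 10, then 14 and 26) had the order of the members. No test was made of these counts.

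Core promoters of member genes differed from the others in both elements searched. TATAAA lay 45 to 20 bp upstream of the TSS, on the strand of the gene, in 4.97% of member genes (3.56 to 6.90), in 10.4% of eligible genes without a member (9.74 to 11.2) and in 9.95% of all eligible genes. The initiator letters TCAGT lay within 5 bp of the TSS in 16.1% (13.5 to 19.1), 8.90% (8.26 to 9.58) and 9.45%. For member genes the TSS nearest to the strongest member was used and for the others the outermost start, which can differ in how well it is annotated.

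Member genes were long and had long first introns. Their median length was 6230 bp, with quartiles of 2639 and 15767 bp, against 1934 bp, with 1071 and 4551 bp, for eligible genes without a member. The first intron had a median of 1135 bp against 70.0 bp. The share of eligible genes with a member was 1.55% (1.05 to 2.28) below 1000 bp of gene length, 8.74% (7.57 to 10.1) from 2000 to under 5000 bp and 20.8% (17.7 to 24.3) from 10000 to under 20000 bp. In the 2 longer classes it was 19.3% and 18.5%. Genes with 1 annotated TSS had a member in 6.39% (5.79 to 7.05) and those with 5 or more in 25.2% (17.8 to 34.4). More starts offer more places for a nearest TSS, so the 2 measures are not independent of the rule.

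The space upstream was also larger, at a median of 1330 bp to the next protein-coding gene against 501 bp. The gap was widest in the GC-rich class, whose 320 genes had a median gap of 3598 bp and a median length of 8780 bp. The 130 genes of AT-rich members had 591 bp and 3545 bp, close to the 617 bp of the middle class. Genes named only by a CG number were 38.5% of the AT-rich class, 22.5% of the GC-rich class and 49.4% of the eligible genes without a member. Of all member summits, 80 (11.3%) lay inside another protein-coding gene, and 18 of these in an exon of it. Among the autosomal arms, from 7.81% of eligible genes on chromosome 4 to 8.88% on 3R had a member, and the intervals overlapped.

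**Figure D5:**
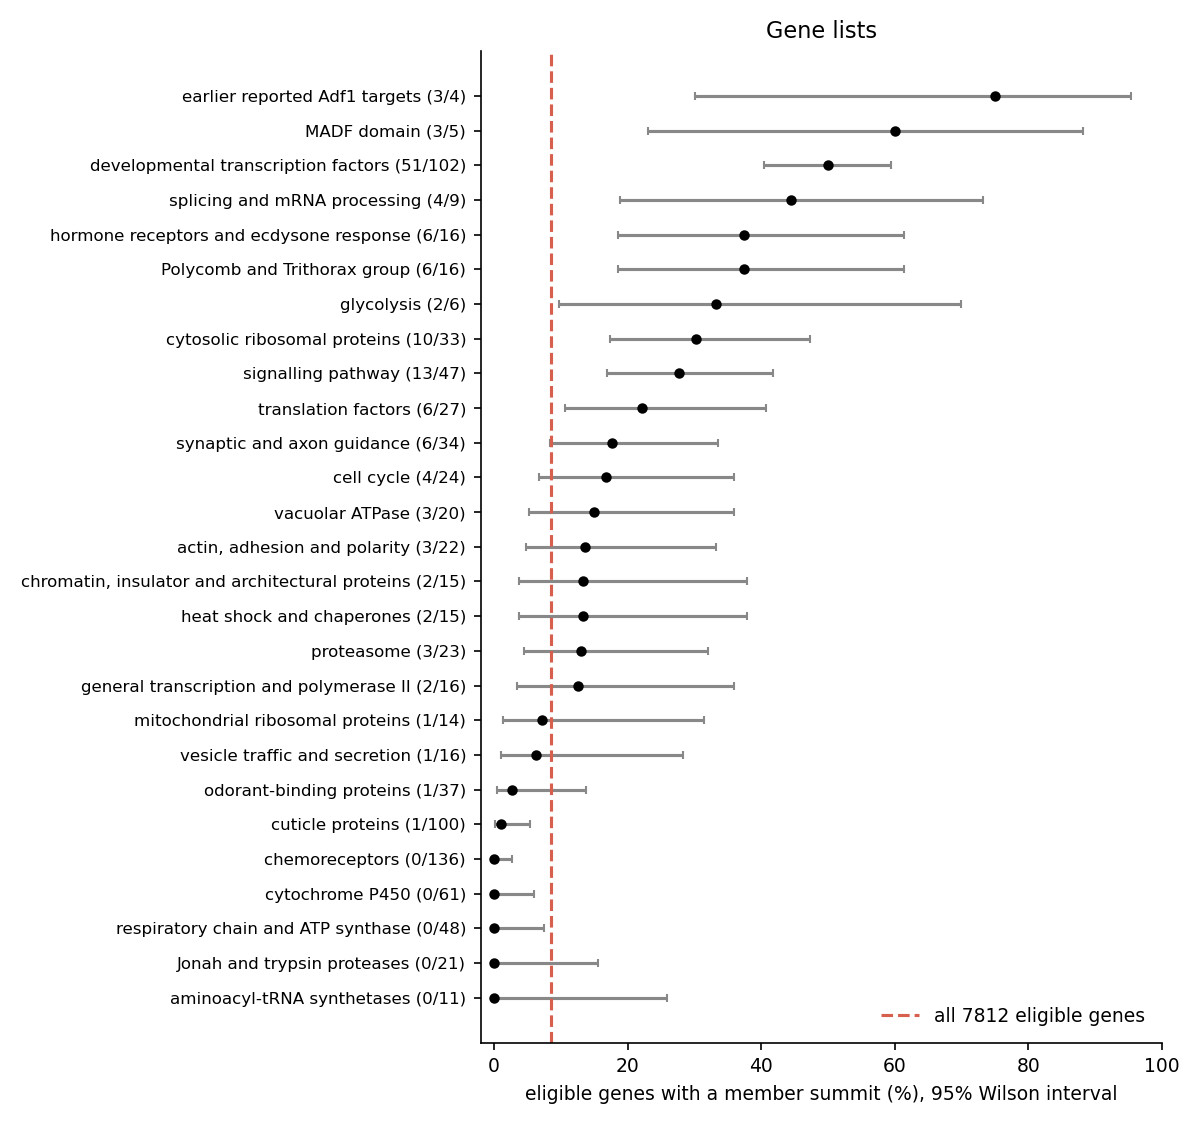
Percent of the eligible genes of each list that had a member summit, with 95% Wilson intervals; the counts stand beside the names and the dashed line is the 8.50% of all 7812 eligible genes. Developmental transcription factors stand highest among lists of more than 20 eligible genes, and chemoreceptors, cytochrome P450 genes, respiratory chain genes and cuticle genes lie below the line.

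Genes were grouped into 27 lists of known function, and each list was read against the 8.50% of all eligible genes. The interval lay wholly above that share in 10 lists, wholly below it in 4 and included it in 13. Of the 664 member genes 131 were in some list and 533 (80.3%) in none. The lists were written with earlier results of these data known, and the smaller ones rest on few genes.

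Developmental transcription factors had the most members: 51 of 102 eligible genes (50%, 40.5 to 59.5). Their strongest summits were at abd-A, mid, vg, with the signals given above, and at fkh, the forkhead gene of salivary gland and gut, with 1389 from 560 and 821 in the replicates. Signals ranged from 48.5 at the pair-rule gene odd to 1834, with a median of 295 against 168 over all member genes. Replicate 1 held 42 of the 51 and replicate 2 held 50. The high share was seen at each gene length, a split made after the data were seen. Among genes under 5000 bp, 17 of 37 factors (45.9%, 31.0 to 61.6) had a member against 4.82% (4.29 to 5.40) of the other eligible genes. From 5000 to under 20000 bp the shares were 55.3% (39.7 to 69.9) and 16.7% (14.8 to 18.7), and above that 48.1% (30.7 to 66) and 17.8% (15 to 21).

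The summits of these factors were GC-rich and set back from the TSS. By G and C content 41 of the 51 were at 50% or more, 9 in the middle class and 1 under 30%, while all member genes divided into 320, 214 and 130. Their median distance was 155 bp and 8 of the 51 lay within 100 bp, against a median of 108 bp and 305 of 664 for all member genes. GAGAG was within 50 bp of 21 of them and CGCTGC of 16; over all member genes the counts were 150 and 177 of 664.

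Cytosolic ribosomal protein genes, also above the line, presented another arrangement. Members were found at 10 of 33 eligible genes (30.3%, 17.4 to 47.3). The strongest was RpL23A with a signal of 256, from 105 and 152 in the replicates, then RpS29 with 221, RpL11 with 180 and RpL24 with 159. All were moderate, with a median of 128, and RpL30 had 18.8. Their summits lay close to the TSS, at a median of 35.5 bp, and 9 of 10 were within 100 bp. By G and C content 8 of the 10 were in the middle class, none had GAGAG within 50 bp and 1 had CGCTGC. Translation factors resembled them in place, with 6 of 27 genes (22.2%, 10.6 to 40.8), all 6 within 100 bp at a median of 32.5 bp. eIF6, a ribosome anti-association factor, led with 749, followed by eEF1gamma with 244, eIF3f1 with 148 and the 4E-binding protein gene Thor with 136. The position of these summits was not compared by a test, since distance to the TSS was part of the rule.

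Genes of signalling pathways had members at 13 of 47 (27.7%, 16.9 to 41.8). After pnt came aos, an inhibitor of EGF receptor signalling, with 440, from 156 and 284 in the replicates. The Wnt ligand genes followed, Wnt6 with 301 and wg with 235. The Wnt6 summit, 479 bp upstream, had a signal of 174 in replicate 1 and no peak in the ranked list of replicate 2. The median of the list was 135, below that of all member genes.

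Polycomb and Trithorax group genes had members at 6 of 16 (37.5%, 18.5 to 61.4), all at 50% G and C or more. Psc lay 29 bp upstream, and Su(z)2, its paralogue and neighbour, had 669 at 112 bp. The zinc finger gene jing had 337, and grh, a factor of epidermal fate also counted with the developmental factors, had 292. Hormone receptors and ecdysone response genes reached the same 6 of 16, led by Kr-h1 and Hr38, then Blimp-1 with 196 and ftz-f1 with 181. All 6 of them were in the thresholded lists of both replicates.

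The other lists above the line were small. Splicing genes had 4 of 9, SmD3 with 149, snRNP-U1-70K with 137, tra2 with 130 and glo with 90.9, and glo was in neither thresholded list of a replicate. MADF domain genes had 3 of 5, brwl with 454, Mes2 with 385 and Dlip3 with 104. Glycolysis genes had 2 of 6, Ald1 with 2031 and the lactate dehydrogenase gene Ldh with 240. Genes named in earlier work as Adf1 targets had 3 of 4: the Hox gene Antp with 876, Adh with 586 and the dopa decarboxylase gene Ddc with 233. This last list was not independent, since the genes are known for Adf1 sites. All 3 had CGCTGC within 50 bp of the summit, and Adh had a second member with 110. The stronger Adh summit lay 132 bp upstream of a TSS that was 715 bp inside the outermost start of the gene.

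The 4 lists below the line were chemoreceptors, cytochrome P450 genes, cuticle proteins and the respiratory chain with ATP synthase. None of 136 chemoreceptor genes had a member, which allows a share of up to 2.21% by a limit of 3 counts and 2.75% by the Wilson interval. None of 61 cytochrome P450 genes had one (up to 4.92% and 5.92% by the same limits), and none of 48 genes of the respiratory chain and ATP synthase (up to 6.25% and 7.41%). Of 100 cuticle protein genes only Cpr51A had one, with a signal of 141. Mitochondrial ribosomal proteins had 1 of 14, mRpL53 with 118, and their interval of 1.27% to 31.5% included the line. These shares concern the upstream rule, and the 4 lists differed when any summit within 500 bp was counted. Of all genes in each list, 9 of 90 respiratory genes were nearest to such a summit. The counts were 3 of 83 for cytochrome P450, 2 of 121 for cuticle proteins and 0 of 180 for chemoreceptors. The same share over all genes is not given here.

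The 13 lists whose interval included the line gave counts too small to place them. Synaptic and axon guidance genes had 6 of 34, with Fas3, the guidance gene side at 318, the potassium channel gene Shab at 294 and PlexA, a semaphorin receptor gene, at 166. Cell cycle genes had 4 of 24, PCNA with 118, polo with 114, E2f2 with 88.3 and Orc1 with 82.9, all 4 within 100 bp of the TSS. Vacuolar ATPase genes had 3 of 20 (Vha68-2 with 151, Vha16-1 with 150, VhaSFD with 94.4) and proteasome genes 3 of 23 (Rpn6 with 157, Rpn9 with 114, Rpn1 with 98.1). Adhesion and polarity genes had 3 of 22: scrib, Rac2 with 168 and jar with 109. Heat shock genes had 2 of 15, Hsp27 with 385 and Hsp26 with 140. Chromatin and insulator genes had 2 of 15, Gcn5 with 178 and JIL-1 with 137, and polymerase II genes 2 of 16, Polr2F with 206 and Polr2E with 111. Single members were Golgin245 with 140 among 16 traffic genes and Obp99b with 89.3 among 37 odorant-binding protein genes. Aminoacyl-tRNA synthetases had 0 of 11 and Jonah and trypsin proteases 0 of 21.

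Most genes had 1 member, 619 of 664; 44 had 2 and Wnt6 had 3, with signals of 301, 180 and 103. Pairs could be unequal, as at CG9743 with 1906 and 749 or jim with 1411 and 717, or alike, as at sbb with 393 and 392. Some member genes had other Adf1 summits as well: 195 of the 664 genes (29.4%) were the nearest gene of at least 1 summit of another class. The same share was not computed for other eligible genes, which were shorter by median length. An excess at member genes was therefore not tested. The ecdysone-induced gene Eip75B was nearest to 19 summits, of which 2 were members, tou to 17 with 2 and ftz-f1 to 14 with 1. Promoter-proximal and distal summits accounted for most of these, at 89 and 87 genes.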

How the data were processed

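The authors deposited peak lists on dm6, ranked by the irreproducible discovery rate (IDR), for each of the 2 replicates and for both together; per the deposited file lists they were made from alignments and a control file, which were not analysed here. The sources used here name no aligner or peak caller for them. The score of each peak is a scaled IDR from the authors, with 1000 the highest, and was not tested. The signal is the authors' deposited peak-caller value on an unstated scale, and the summit offset, also theirs, gave the summit.

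Members came from the conservative list. Start sites were the 5′ ends of transcripts of 13968 protein-coding genes of Ensembl release 115 on BDGP6.54; ties went to the upstream side. Arm lengths of the RefSeq genome were compared with the lists. Python 3.11 with SciPy gave 95% Wilson intervals. The members, the 27 gene lists and the motifs were chosen with earlier results of these data known; 40 list symbols had no match. Named genes were those of the 25 highest signals, up to 4 per list, the 5 nearest to each side of the distance limit and the 5 weakest, with other choices marked. There was 1 group and no comparison between groups, so no p-value was computed. Another 16 unnamed columns of single inputs in the joint ranked lists were not used, and sequence from 1 arm is not printed. The classification and motif search were tested on positions and planted letters drawn at random. Alternatives were another peak list, a signal limit, head-to-head, start and interval rules, distance limits, each replicate's list, overlap rules, motif lengths and windows.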

Additional observations from a re-analysis of the deposited data

How the results depend on the processing

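The number of members (710) stayed within 1.5 times under 8 of 9 alternatives and was 373 with only summits at or above the median signal; the list of a single replicate gave 529 to 908. The number of gene lists above the share of all eligible genes was 10, and 8 to 12 under all alternatives. The share of eligible genes with a member, 8.50%, was 10.4% in the longer, optimal list, 4.57% above the median signal, 7.59% at outermost starts only, and 6.43% to 10.6% in the lists of single replicates. The median distance of 112 bp moved to 124 bp with a limit of 1000 bp, by construction. The ratio of the members' median signal to that of all summits, 1.08 in the joint list and in both replicates' lists, was 1.06 in the optimal list, 1.07 above the median signal, 1.09 with head-to-head genes on either side, 1.11 at outermost starts, 1.07 with 1 summit per interval, 1.09 up to 300 bp and 1.07 up to 1000 bp. Overlap with replicate 1 (71.5%) was 60.3% in the optimal list, 95.2% above the median signal, 66.3% when a summit had to lie within 100 bp and 98.6% with the ranked list. For replicate 2 (90.7%) the same settings gave 88.3%, 99.2%, 87.2% and 99.6%. The triplet share of 5.77% was 10.2% above the median signal, 3.52% within 25 bp, 9.01% within 100 bp, 16.5% with 3 GC pairs and 1.41% with 5; the lists of replicates 1 and 2 gave 7.94% and 5.62%. The cause of these moves was not tested beyond what each setting selects. No paired analysis was possible because there was only 1 group. Settings added after seeing the data gave CGCTGC in 35.1% of members above the median signal and 29.3% and 22.9% in the replicates' lists, and members under 30% G and C as 10.4% and 25.9% with limits of 25% and 35% and 14.2% in the list of replicate 2. Developmental factors had a member in 38.2% above the median signal and in 39.2% and 56.9% in the lists of replicates 1 and 2. Peak lists without read counts give no depth per site.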
